A study of Homo sapiens with 6 samples.

Results

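The transcripts of 9 genes of the tight junction, the claudins CLDN1, CLDN3, CLDN4, CLDN7 and CLDN12, the membrane proteins OCLN and F11R, and the plaque proteins TJP1 and CGN, were followed among the 59251 gene symbols measured in HCT116 cells. HCT116 is an established human colorectal carcinoma line. The mutant cells (MUT) were homozygous for N106S, a substitution that CRISPR/Cas9 editing put into eIF6, and the labels describe them as clones. The wild-type cells (WT) were HCT116 without that substitution, and both were grown to sub-confluence. Bulk total RNA of 3 MUT and 3 WT libraries was sequenced. The labels do not say whether the 3 libraries of a genotype came from separate clones or cultures, so the tests see the spread among these 6 libraries alone, and that spread may be technical. The genes were chosen by symbol, with no threshold, in a list drawn up when the MUT and WT counts of these libraries were known. Their differences and p-values therefore stand as descriptions: they show where the genes lie among all genes.

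Tight junctions seal the space between neighbouring epithelial cells near their apical side. Claudins are 4-pass membrane proteins whose extracellular loops meet across the gap and form the strands that close it or make it permeable to selected ions. Occludin and the immunoglobulin-like adhesion molecules of the JAM family lie in the same strands or beside them, and plaque proteins of the ZO and cingulin families tie the strands to actin. In intestinal epithelium this seal keeps the contents of the lumen from passing between cells, and sealing and pore-forming claudins are both used there.

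The libraries held 80146608, 58935201 and 53986494 expected counts in MUT and 87656970, 69342679 and 63951768 in WT. Between 62.7% and 80.9% of the MUT counts and between 74.3% and 84.0% of the WT counts fell on the abundant noncoding RNAs of the 7SL, 7SK, RNase P and RNase MRP families. Levels are therefore given as CPM, counts relative to a library size that was scaled by TMM, a method that takes most genes to be unchanged, and the 9 genes together held 1583 to 2359 counts in MUT and 1922 to 3156 in WT. Ribosomal RNA took 3.93% of MUT replicate 2 and 0.0892% to 1.17% of the other libraries, of which WT replicate 1 had the most. Values from the 4 libraries without these 2 stand beside the results below. EIF6 itself, whose edit is a substitution and so leaves a transcript to be counted, had 36.7, 30.7 and 35.7 CPM in MUT and 43.3, 47.9 and 47.4 CPM in WT. A marker is said to have counts if any library held some. The 7 colon carcinoma markers all had counts, with a summed 452 to 500 CPM in MUT and 412 to 452 CPM in WT, nearly all of it from the keratins KRT8, KRT18 and KRT19. VIL1 had only 3, 6 and 0 counts in MUT and 1, 4 and 0 in WT, too few to be tested. Within that list EPCAM (log2 fold change -0.34, adjusted p 0.139) and CDH1, the gene of E-cadherin (-1.23, adjusted p 0.119, edgeR), did not follow the sum: both were lower in every MUT library, without passing the test. Fibroblast markers (6 of 6 with counts) summed to 1.61 to 2.63 CPM in MUT and 0.594 to 3.05 CPM in WT, leukocyte markers (3 of 5, with PTPRC and CD3E at 0) to 0.788 to 1.43 and 0.995 to 1.07 CPM, and endothelial markers (3 of 5, with CDH5 and CLDN5 at 0) to 0 to 0.0616 and 0.0134 to 0.0434 CPM. In bulk RNA, fewer cells expressing a gene and less RNA per cell cannot be told apart.

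Of the 9 genes, 8 had enough counts to be tested, and 2 of them, CLDN7 and CLDN4, fell in MUT at an adjusted p below 0.05. Over all 14808 genes tested, 1.91% passed that threshold, 0.986% as higher and 0.925% as lower in MUT. The log2 fold change of MUT over WT was below 0 for 7 of the 8 and above 0 for TJP1, while 48.7% of all tested genes were above 0. The median over the 8 was -0.66, against -0.01 over all tested genes. In 5 of the 8 the 3 MUT values did not overlap the 3 WT values, which held for 26.1% of all tested genes. That count depended on the scaling: relative to the counts left after removal of the abundant noncoding RNAs and ribosomal RNA only CLDN3, CLDN4 and CLDN7 were apart, and relative to all counts only CLDN4 was. Of the 8, 4 had an unadjusted p below 0.05, as did 19.6% of all tested genes. These counts follow from a list drawn up with such results known, so nothing is read from them. All p-values below are from edgeR's quasi-likelihood F-test, adjusted by Benjamini-Hochberg over all genes tested.

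CLDN7, a claudin found along the lateral membrane of colon epithelium, was the most abundant claudin. It had 12.4, 9.79 and 11.2 CPM in MUT, on 930, 953 and 670 counts, against 19.6, 17.97 and 19.4 CPM in WT, on 1356, 1345 and 837 counts. Every MUT library lay below every WT library, and the means were 11.1 ± 1.30 CPM in MUT and 19.0 ± 0.895 CPM in WT (SD, n = 3 each). The log2 fold change was -0.77 with a standard error of 0.13 and an adjusted p of 0.0231 (edgeR), which is 1.71-fold lower in MUT.

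CLDN4, a claudin best known as a receptor of Clostridium perfringens enterotoxin and as a marker of epithelial carcinomas, had 7.68, 5.85 and 7.32 CPM in MUT, on 577, 570 and 437 counts. In WT it had 14.4, 10.7 and 14.8 CPM, on 993, 803 and 641 counts. The groups were again apart, with MUT replicate 2 the lowest of the MUT libraries and WT replicate 2 the lowest of the WT ones. Its means were 6.95 ± 0.970 CPM in MUT and 13.3 ± 2.25 CPM in WT (SD, n = 3 each). The log2 fold change was -0.94 with a standard error of 0.16 and an adjusted p of 0.0284 (edgeR), or 1.91-fold lower in MUT. Both calls were lost when any 1 library other than MUT replicate 2 was left out. The adjusted p of CLDN4 lay between 0.0642 and 0.118 and that of CLDN7 between 0.0676 and 0.112, with log2 fold changes no closer to 0 than -0.84 and -0.73. Without MUT replicate 2 both calls held, at -0.80 and -0.66, and in the 4 libraries lowest in ribosomal RNA they held at -0.74 (adjusted p 0.0286, edgeR) and -0.64 (adjusted p 0.0276, edgeR). With libraries scaled by their total alone, the log2 fold changes were -0.39 for CLDN4 and -0.25 for CLDN7, neither called, beside a median of 0.54 over all tested genes.

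CLDN3, also a receptor of that enterotoxin, had 1.98, 1.39 and 1.64 CPM in MUT and 2.998, 2.49 and 2.38 CPM in WT. The groups did not overlap, but the log2 fold change of -0.66 (standard error 0.18) had an adjusted p of 0.0991 (edgeR) and was not called, and it was -0.40 in the 4 libraries lowest in ribosomal RNA. CLDN12, a claudin that lacks the PDZ-binding end by which most claudins attach to ZO proteins, was scarcer. It had 0.746, 0.555 and 0.637 CPM in MUT and 1.03, 0.868 and 1.18 CPM in WT, again without overlap, on 38 to 56 counts in MUT and 51 to 71 in WT. Its log2 fold change was -0.66 with a standard error of 0.23 and an adjusted p of 0.165 (edgeR). CLDN1, a sealing claudin of skin and gut epithelia, had 0 counts in all 6 libraries. A count of 0 allows up to 3 counts, or 0.0308 to 0.0503 CPM in the MUT libraries and 0.0401 to 0.0694 CPM in the WT libraries, which covers counting error only.

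Among the other membrane proteins, occludin (OCLN), a 4-pass protein of the strand that is not a claudin, had 0.945, 0.811 and 0.888 CPM in MUT and 1.25, 1.002 and 1.04 CPM in WT. The groups did not overlap, but lay close, and the log2 fold change of -0.32 (standard error 0.20) had an adjusted p of 0.430 (edgeR). F11R, which encodes the adhesion molecule JAM-A, had 2.30, 2.49 and 2.28 CPM in MUT and 3.40, 2.24 and 2.87 CPM in WT, with WT replicate 2 inside the MUT range. Its log2 fold change was -0.27 (standard error 0.17, adjusted p 0.438, edgeR). By library totals alone they read 0.22 for OCLN and 0.33 for F11R, where the median of all tested genes was 0.54, and relative to that median they were -0.32 and -0.21. In the 4 libraries lowest in ribosomal RNA they were -0.13 and -0.12.

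Of the plaque proteins, TJP1, which encodes the scaffold ZO-1, had 2.74, 3.17 and 2.18 CPM in MUT and 2.68, 2.26 and 2.38 CPM in WT. The ranges overlapped, and the log2 fold change was 0.15 with a standard error of 0.17 and an adjusted p of 0.691 (edgeR). Cingulin (CGN), which binds ZO-1 and the cytoskeleton, was the rarest of the tested genes, with 13 to 21 counts in MUT and 18 to 30 in WT. It had 0.173, 0.175 and 0.352 CPM in MUT and 0.333, 0.401 and 0.417 CPM in WT, so that MUT replicate 3 lay within the WT range, and its log2 fold change was -0.74 (standard error 0.41, adjusted p 0.362, edgeR).

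**Figure D1:**
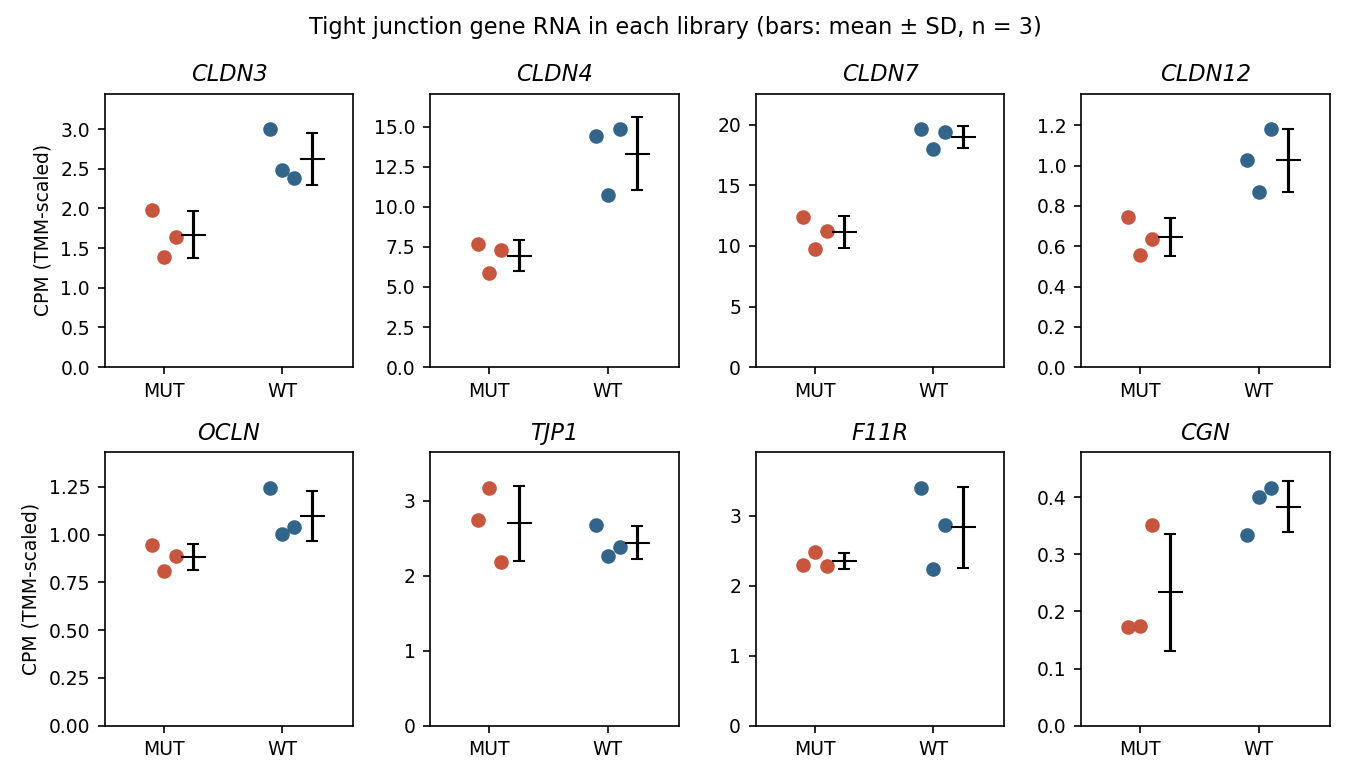
Level of each of the 8 tested genes in every library, in CPM on TMM-scaled library sizes; points are libraries, MUT to the left of WT, and bars are the group mean and SD (n = 3 each). CLDN7 and CLDN4 show MUT below WT without overlap, with 9.79 to 12.4 and 5.85 to 7.68 CPM in MUT and 17.97 to 19.6 and 10.7 to 14.8 CPM in WT.

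Ratios of 2 genes in the same library do not depend on how libraries are scaled. Counts of CLDN4 per count of TJP1 were 2.80, 1.84 and 3.36 in MUT and 5.37, 4.75 and 6.22 in WT, and counts of CLDN7 per count of TJP1 were 4.51, 3.08 and 5.15 in MUT and 7.33, 7.96 and 8.13 in WT. Both ratios were lower in every MUT library. Against EPCAM, an epithelial adhesion protein that binds CLDN7, the ratio of CLDN4 was 1.07, 0.711 and 1.03 in MUT and 1.58, 1.09 and 1.55 in WT, and that of CLDN7 was 1.72, 1.19 and 1.58 in MUT and 2.15, 1.83 and 2.02 in WT, with no overlap in either. The counts of TJP1 per count of EPCAM were 0.381, 0.385 and 0.307 in MUT and 0.294, 0.230 and 0.249 in WT, so that this ratio was higher in every MUT library. For CLDN3, CLDN12, OCLN, F11R and CGN the ratio to EPCAM overlapped between the groups. That of CLDN3 was 0.275, 0.168 and 0.231 in MUT and 0.329, 0.253 and 0.249 in WT. The separation of CLDN3, CLDN12 and OCLN in CPM was thus not seen in this ratio. EPCAM was itself lower in every MUT library in CPM (log2 fold change -0.34), near the -0.32 of OCLN. Ratios to EPCAM hold that difference as well, so an overlap there does not show that a member was unchanged. CLDN4 per CLDN7 was 0.620, 0.598 and 0.652 in MUT and 0.732, 0.597 and 0.766 in WT, which overlapped. Ratios show unequal change within a library and not which of the 2 genes moved.

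Levels of different genes were compared per length, as FPKM from the authors' deposited table. CLDN7 was at 8.16, 11.3 and 8.7 FPKM in MUT and 10.6, 13.5 and 9.09 FPKM in WT, CLDN4 at 4.44, 5.97 and 5 FPKM in MUT and 6.99, 7.15 and 6.19 FPKM in WT, and CLDN3 at 1.55, 1.91 and 1.51 FPKM in MUT and 1.97, 2.24 and 1.34 FPKM in WT. The order CLDN7, CLDN4, CLDN3 held in all 6 libraries. Together these 3 held 93.9% to 96.6% of the summed FPKM of the 24 claudins in the table. CLDN7 made up 55.1 ± 1.06% of that sum in MUT and 53.9 ± 2.52% in WT, CLDN4 30.2 ± 1.14% in MUT and 33.4 ± 2.93% in WT, and CLDN3 9.77 ± 0.447% in MUT and 8.96 ± 1.07% in WT (SD, n = 3 each). The ranges of all 3 shares overlapped between the genotypes. Of the other members, F11R had 0.48 to 0.91 FPKM in MUT and 0.42 to 0.59 FPKM in WT. TJP1 had 0.32 to 0.73 FPKM in MUT and 0.22 to 0.34 FPKM in WT. CLDN12 had 0.20 to 0.27 FPKM in MUT and 0.23 to 0.27 FPKM in WT. These 3 were followed by OCLN, with 0.15 to 0.22 FPKM in MUT and 0.12 to 0.18 FPKM in WT, and by CGN, with 0.04 to 0.08 FPKM in MUT and 0.06 to 0.08 FPKM in WT. F11R overlapped TJP1 in MUT, TJP1 overlapped CLDN12 in WT and CLDN12 overlapped OCLN in MUT, and the other neighbouring ranges were apart.

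**Figure D2:**
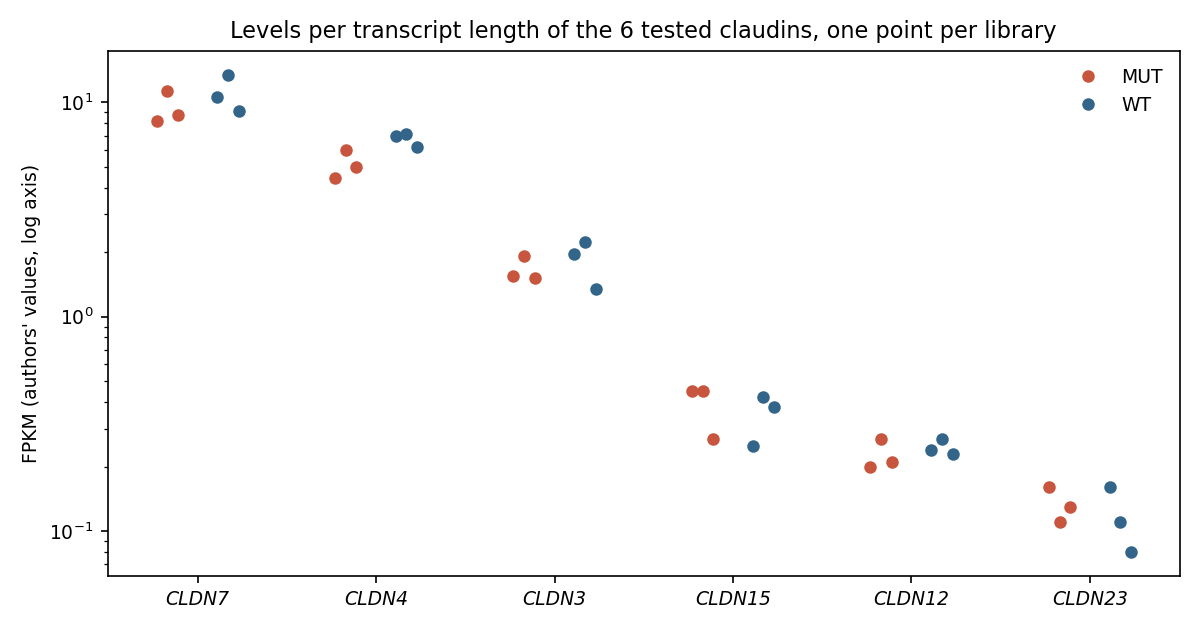
FPKM from the authors' deposited table of the 6 tested claudins, on a logarithmic axis, with 1 point per library and MUT beside WT. CLDN7 at 8.16 to 13.5, CLDN4 at 4.44 to 7.15 and CLDN3 at 1.34 to 2.24 FPKM stand above the other 3 in both genotypes.

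An annotated start of CLDN7 carries a group of E-boxes, the 6-base element CAGGTG, read as CACCTG from the other strand, that repressors of epithelial genes in the SNAI and ZEB families are known to bind. Within 250 bases before an annotated start, searched on both strands, 17.5% of 35116 RefSeq promoters held at least 1 E-box and 2.53% at least 2. Promoter windows of RefSeq's GRCh38.p14 annotation matched 8 of the 9 genes by symbol, with 13 windows in all. The window before the inner of the 2 annotated CLDN7 starts held 4 E-boxes, each of the 2 OCLN windows held 1, and 1 of the 4 TJP1 windows held 1. No E-box lay in the windows of CLDN1, CLDN3, CLDN4, CLDN12 and CGN or in the other CLDN7 window. The sequences below are shown because they are the E-boxes found at these starts, each 30 bases with the E-box in capitals, written 5′ to 3′ on the gene's strand. A match is a description of the letters and not a binding site, and binding was not tested. Of the SNAI and ZEB genes, SNAI1 had a log2 fold change of -0.02 (adjusted p 0.972, edgeR). ZEB1 was at 0.21 (adjusted p 0.732, edgeR), and SNAI2 and ZEB2 were too scarce to be tested.
CLDN7, chr17:7262635-7262664 (-), E-box 174 bases before the start: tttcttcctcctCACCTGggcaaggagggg
CLDN7, chr17:7262596-7262625 (-), 135 bases before the start: cgacttccggttCAGGTGagtgtcccttcg
CLDN7, chr17:7262475-7262504 (-), first of 2 E-boxes 20 bases before the start: tatactCAGGTGcgcccCACCTGtccgccc
OCLN, chr5:69492502-69492531 (+), 33 bases before 1 annotated start: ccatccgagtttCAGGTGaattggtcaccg
OCLN, chr5:69492645-69492674 (+), 133 bases before the other start: tctaggacgcagCAGGTGggactcgcggcg
TJP1, chr15:29969120-29969149 (-), 88 bases before the start: gcggccggcgcgCAGGTGgcccggcctcgc

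CLDN3 and CLDN4 are neighbours. CLDN3 lies at chr7:73768997-73770270 on the minus strand and CLDN4 at chr7:73830996-73832690 on the plus strand (GRCh38.p14), 60725 bases apart. Members, here CLDN3, were left out of the counts of neighbours. Of the 18 other genes tested within 500000 bases of CLDN4, 9 had a log2 fold change below 0 and 2 were called. These were METTL27, a methyltransferase-like gene 1899 bases beyond CLDN4, at -0.83 (standard error 0.17, adjusted p 0.0470, edgeR), and DNAJC30, a mitochondrial co-chaperone gene, at 0.63 (adjusted p 0.0374, edgeR). Around CLDN7 at chr17:7259903-7263213 (minus strand), 42 genes were tested within the same distance, with 16 below 0 and 2 called, MPDU1, a gene of dolichol-linked glycosylation, at 0.94 and TNFSF12, which encodes the cytokine TWEAK, at 0.57, both higher in MUT. Over all 14808 genes tested, 7601 were below 0 and 1.91% were called. Around CLDN12, OCLN, TJP1 and CGN no neighbour within that distance was called, and around F11R 1 was. The call of METTL27 was lost without any 1 of the 6 libraries, and those of DNAJC30, MPDU1 and TNFSF12 without at least 1.

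Some counts may be shared with other annotated transcripts. In GENCODE release 29, 35.8% of the 50-base words in the exons of F11R recur in other genes, chiefly AL591806.3, which overlaps it on the same strand. The share was 12.6% for CLDN12, 8.60% for OCLN, 8.25% for CLDN7, 1.80% for CLDN3 and 0.612% for CLDN4, and 0 for CLDN1, TJP1 and CGN. Neither AL591806.3 nor AC003688.1, with which CLDN7 shares its words, was among the measured symbols under that name. Counts of genes with shared words are uncertain, by an amount these shares do not give. CLDN12 shares exon bases on the same strand with GTPBP10, which had counts of 176, 310 and 116 in MUT and 208, 185 and 100 in WT, and with CDK14, which had 131, 95 and 82 in MUT and 74, 93 and 52 in WT. Both had more counts than CLDN12 in every library. OCLNP1, an occludin pseudogene, had counts of 10, 19 and 5 in MUT and 22, 19 and 6 in WT.

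The rest of the junction was held in 4 lists. Of the 19 other claudins, 2 could be tested and neither passed, or had an unadjusted p below 0.05: CLDN15, a cation pore-forming claudin of intestine, had a log2 fold change of -0.20 (standard error 0.32) and CLDN23 of -0.26 (standard error 0.47). Of 14 other membrane proteins, 8 were tested and none passed, 4 on each side of 0, with a median of 0.02, and 1 had an unadjusted p below 0.05, against 19.6% of all tested genes. LSR, the angulin that recruits tricellulin to the corners where 3 cells meet, had 13.2, 14.1 and 14.2 CPM in MUT and 10.2, 9.87 and 10.2 CPM in WT, with no overlap, a log2 fold change of 0.46 and an adjusted p of 0.0624 (edgeR). CRB3, an apical polarity protein, had 6.42, 4.50 and 5.06 CPM in MUT and 6.62, 6.60 and 6.22 CPM in WT (log2 fold change -0.28, adjusted p 0.315, edgeR).

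Of 33 plaque and polarity proteins, 30 were tested, 16 above and 14 below 0 with a median of 0.05. Of the 30, 10 had an unadjusted p below 0.05, against 19.6% of all tested genes. At the adjusted threshold 1 fell, where 1.91% of all tested genes were called: PARD3, the scaffold of the apical PAR complex that helps to position tight junctions. It had 1.68, 1.82 and 2.04 CPM in MUT and 3.65, 3.37 and 3.79 CPM in WT, at a log2 fold change of -0.96 with a standard error of 0.14 and an adjusted p of 0.0165 (edgeR). The call was lost when any 1 library other than MUT replicate 2 was left out, at an adjusted p of 0.0557 to 0.0939 (edgeR), and by library size alone. The most abundant of that list, YBX3, a cold-shock protein also named ZONAB for its binding to ZO-1, had 131, 155 and 135 CPM in MUT and 105, 141 and 101 CPM in WT, which overlapped, and RAB13, a small GTPase of junction traffic, had 13.0, 14.5 and 12.03 CPM in MUT and 16.9, 20.8 and 15.5 CPM in WT (adjusted p 0.151, edgeR). Of 12 partners of claudins, proteases and their inhibitors included, 10 were tested and none passed, with 8 below 0 and a median of -0.17, and 3 had an unadjusted p below 0.05, against 19.6% of all tested genes. SPINT2, an inhibitor of the protease matriptase, had 17.8, 20.2 and 21.4 CPM in MUT and 22.01, 23.8 and 22.5 CPM in WT, and EPCAM had 7.20, 8.24 and 7.11 CPM in MUT and 9.12, 9.83 and 9.58 CPM in WT, without overlap (adjusted p 0.139, edgeR). Over these 4 lists, 1 of 50 tested genes passed, against 1.91% of all tested genes, 28 were below 0 and the median was -0.06. DESeq2 called 2 of them, against 5.16% of all tested genes.

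**Figure D3:**
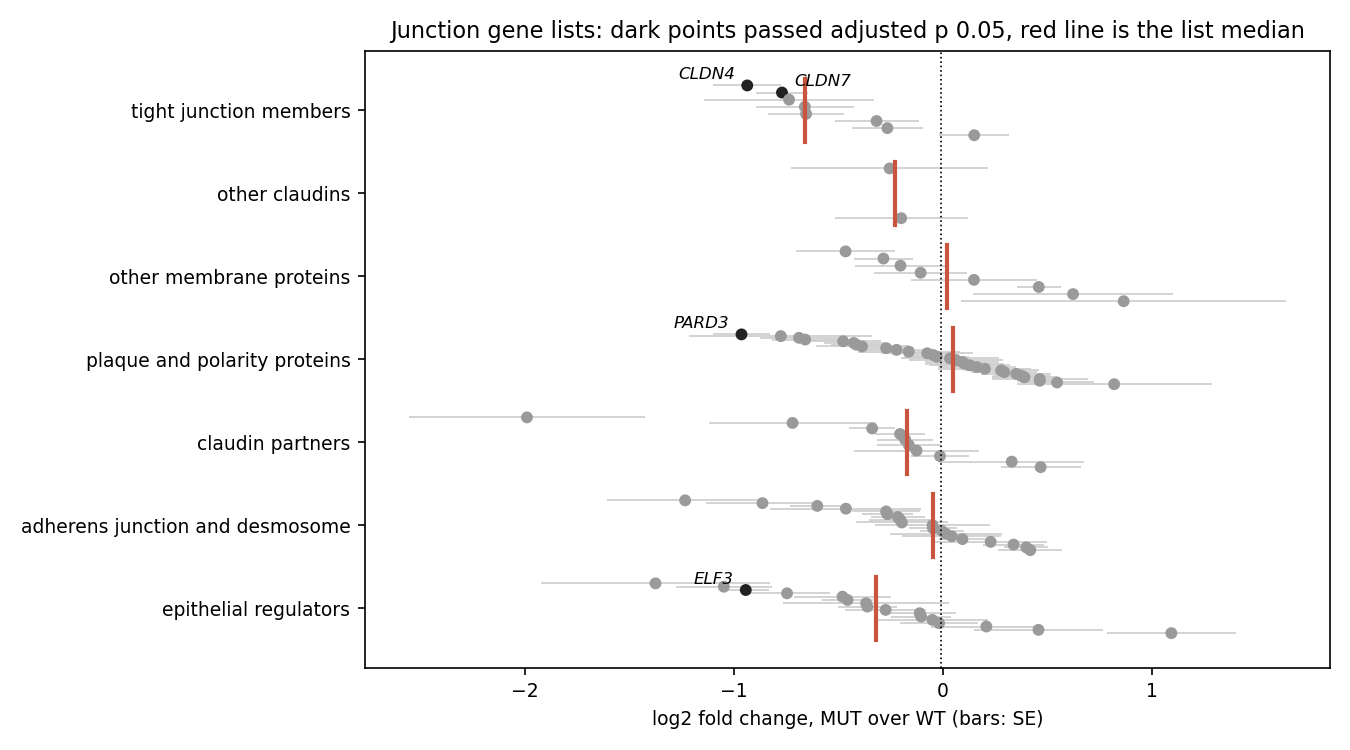
Log2 fold change of MUT over WT for every tested gene of each list, with bars for the standard error; dark points passed an adjusted p of 0.05, the red line is the list's median and the dotted line the median of all tested genes, -0.01. The tight junction members, which were listed with results known, have a median of -0.66 and the plaque and polarity proteins one of 0.05.

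Adherens junctions and desmosomes, the other contacts between epithelial cells, had 19 of 21 genes tested. None passed in edgeR or DESeq2, 12 lay below 0, and the median was -0.05. Of the 19, 6 had an unadjusted p below 0.05, against 19.6% of all tested genes. NECTIN3, an adhesion receptor of the adherens junction, had 12.1, 9.12 and 9.45 CPM in MUT and 8.65, 7.08 and 8.59 CPM in WT (log2 fold change 0.34, adjusted p 0.247, edgeR), and NECTIN2, a related receptor, had a log2 fold change of -0.20 (adjusted p 0.500, edgeR). Of 21 regulators of the epithelial state, 16 were tested, 13 below 0 with a median of -0.32, and 1 fell, where 1.91% of all tested genes were called. The other 3 lay above 0, as did 48.7% of all tested genes. Of the 16, 7 had an unadjusted p below 0.05, against 19.6% of all tested genes. The 1 that fell was ELF3, an epithelial ETS factor, with 3.77, 3.68 and 3.85 CPM in MUT and 7.36, 6.63 and 7.78 CPM in WT, a log2 fold change of -0.94 (standard error 0.11) and an adjusted p of 0.0065 (edgeR). Its call was lost without MUT replicate 1 (adjusted p 0.0502, edgeR) and without WT replicate 1 (adjusted p 0.0515, edgeR). It was also lost by library size alone and in log2(FPKM + 1), with log2 fold changes of -0.38 and -0.22. ELF3 was not tested in TPM. ESRP1, a splicing factor of epithelial cells, had 4.30, 5.03 and 4.22 CPM in MUT and 6.79, 5.91 and 5.92 CPM in WT, without overlap (log2 fold change -0.46, adjusted p 0.0885, edgeR). GRHL2, a grainyhead factor of epithelial junction genes, named here after its values were seen, had a log2 fold change of -1.05 (standard error 0.23) and an adjusted p of 0.0557 (edgeR). TWIST1, of the same list and also named after its values were seen, went the other way. It had 0.706, 0.760 and 0.955 CPM in MUT and 0.377, 0.267 and 0.509 CPM in WT, without overlap (log2 fold change 1.09, adjusted p 0.104, edgeR). The list holds factors known to raise junction genes in epithelia and factors known to lower them, so its median mixes both kinds.

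The genes most like CLDN4 and CLDN7 across the 6 libraries were found by the root mean square difference of log2 CPM profiles centred on each gene's own mean, over 4219 protein-coding genes whose log2 CPM averaged 2 or more. Nearest to CLDN4 were CHCHD6, a mitochondrial cristae gene, at 0.0763, SCD, the stearoyl-CoA desaturase, at 0.0915, and PDLIM5, a PDZ and LIM domain protein of the actin cytoskeleton, at 0.121. CLDN7 stood 8th at 0.139. The scarcer members were not ranked, but CLDN12 lay at 0.161, which would be 11th, and CLDN3 at 0.218, which would be 50th. Nearest to CLDN7 were CYP24A1, the vitamin D 24-hydroxylase, at 0.04999, CYBA, a subunit of the NADPH oxidase, at 0.0589, and FKBP2, an endoplasmic reticulum prolyl isomerase, at 0.0647, while CLDN4 stood 34th at 0.139, and CLDN12 at 0.118 and CLDN3 at 0.1202 lay nearer, where each would be 17th. TJP1 was far from both, at 0.598 from CLDN4 and 0.505 from CLDN7. The 6 nearest genes had log2 fold changes of -1.05 to -0.70 and were called, but each call was lost without at least 1 of the libraries. The likeness includes the difference between the genotypes and the scaling that all genes of a library share.

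**Figure D4:**
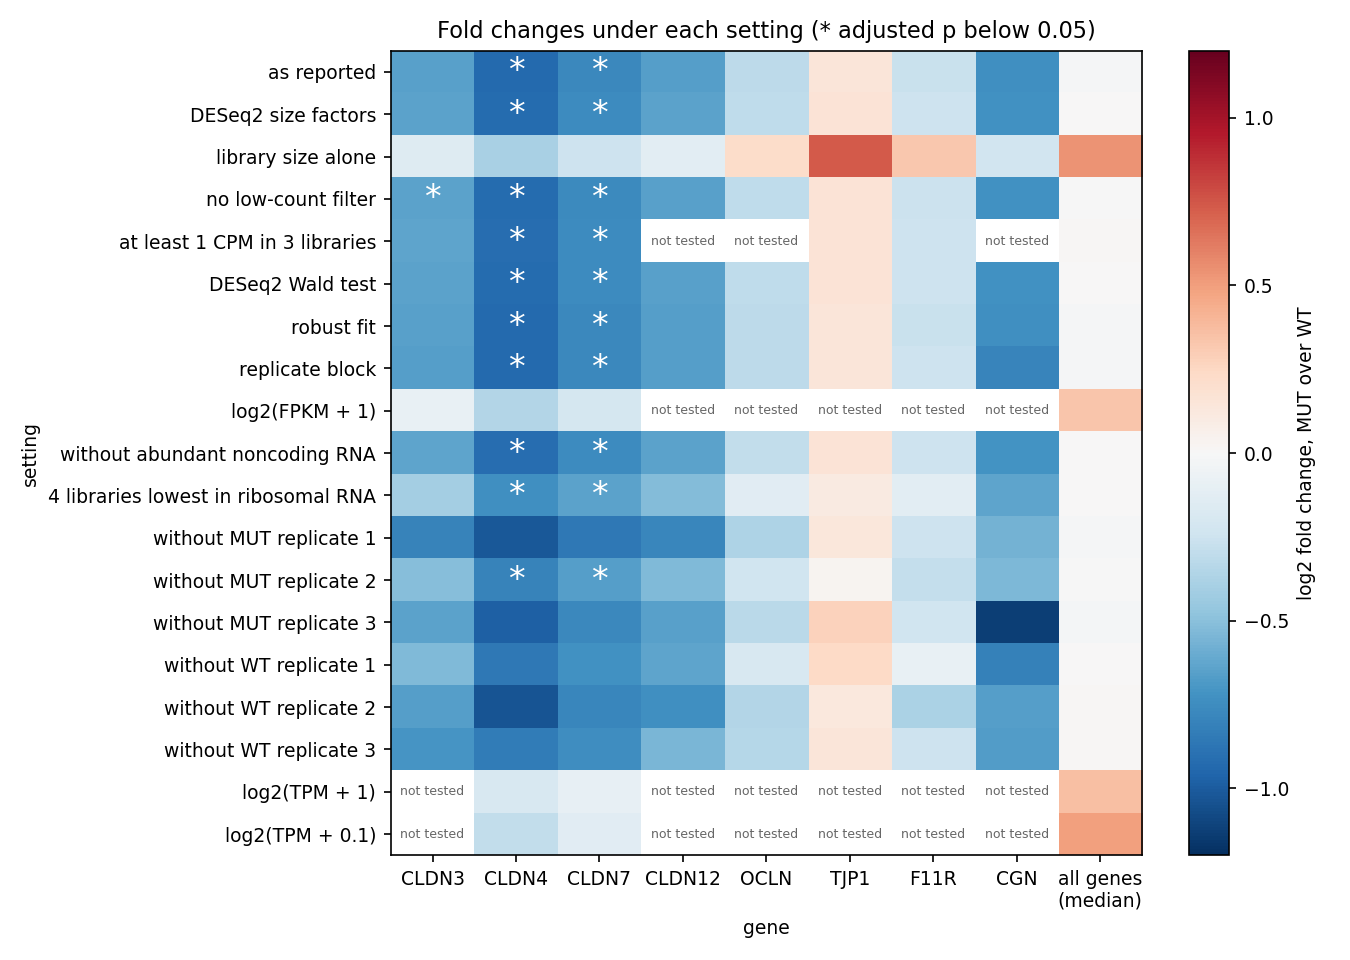
Log2 fold change of MUT over WT of each tested gene (columns) under each way of processing (rows), with the median of all tested genes in the last column. Asterisks mark an adjusted p below 0.05, and the words not tested mark genes that a setting left out. Gene cells without a mark were fitted but did not pass that threshold. CLDN4 and CLDN7 stay below 0 in every row, and OCLN and F11R read 0.22 and 0.33 by library size alone, both below the median of all genes there, 0.54.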

How the data were processed

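Per the file headers, the authors deposited expected counts, FPKM and TPM for 59251 gene symbols in 6 RNA-seq libraries. Builds hg38 and GRCh38 and the tools RSEM 1.2.28, STAR 2.5.2b, DESeq2 1.42.0 and FastQC 0.12.1 are listed, without roles, per the submitters' processing notes. The deposited expected counts were whole, so rounding changed none. The members and gene lists were chosen with earlier results of these data known. In R 4.3.3, edgeR 4.0.16 kept genes with filterByExpr (minimum count 10, total 15) and TMM factors, and tested MUT against WT by the quasi-likelihood F-test without covariates, at a Benjamini-Hochberg adjusted p of 0.05. A standard error is the log2 fold change divided by the square root of F. In simulated data of 14537 genes, 89.1% of 4-fold, 32.3% of 2-fold and 3.08% of 1.5-fold changes were called. The text names all members, from each list the called genes and the 2 with the highest mean TPM, and the 3 genes most like each called member. Genes named outside this rule were chosen after their values were seen. Symbols were matched to RefSeq (57842 matched). In log2 CPM centred on each group's own mean, same-numbered MUT and WT libraries correlated at -0.291, -0.041 and 0.219. Unlike-numbered ones correlated at -0.323 to 0.371, so numbers were not taken as pairs. Ribosome profiling was not analysed here.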

Additional observations from a re-analysis of the deposited data

How the results depend on the processing

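The 18 alternatives were all planned. After the data were seen they were extended to other named genes, though not to SNAI1, ZEB1 or TWIST1. The log2 fold changes of CLDN4 and CLDN7 stayed below 0 in all of them, but neither gene was called by library size alone (-0.39 and -0.25), log2(TPM + 1) (-0.19 and -0.10), log2(TPM + 0.1) (-0.30 and -0.13) or log2(FPKM + 1) (-0.35 and -0.21), and 0 members were called there. In these settings the median of all genes was 0.54, 0.36, 0.49 and 0.33, and no TMM scaling was applied. By library size alone OCLN and F11R read 0.22 and 0.33, below that median. Other named genes below 0 as reported also read above 0 without TMM scaling. By library size alone CRB3 was at 0.21, RAB13 at 0.11, SPINT2 at 0.35, EPCAM at 0.23, NECTIN2 at 0.32, ESRP1 at 0.12, CLDN15 at 0.33, CLDN23 at 0.22 and EIF6 at 0.0891. In log2(TPM + 1), log2(TPM + 0.1) and log2(FPKM + 1), CRB3 was at 0.24, 0.35 and 0.23, RAB13 at 0.16, 0.20 and 0.10, SPINT2 at 0.33, 0.40 and 0.30, EPCAM at 0.18, 0.26 and 0.16 and EIF6 at 0.18, 0.19 and 0.0941, and NECTIN2 and ESRP1 were at 0.23 and 0.0596 in log2(FPKM + 1). CLDN23 was at 0.42 in the 4 libraries lowest in ribosomal RNA and at -0.62 to 0.12 with 1 library left out. With no low-count filter CLDN3 was called too, at -0.65 (adjusted p 0.0275). Over all genes, 283 calls became 108 by library size alone, 1195 with no filter, 462 at 1 CPM or more in 3 libraries, 764 in DESeq2, 552 in the robust fit, and 21, 10 and 13 in log2(TPM + 1), log2(TPM + 0.1) and log2(FPKM + 1). Calls among the other tight junction genes were 1 as reported, 3 with no filter, at 1 CPM and in the 4 libraries lowest in ribosomal RNA, 2 in DESeq2 and the robust fit, and 0 by library size alone, TPM and FPKM. TPM tested only 8 of these genes and FPKM 16. Regulators had 1 as reported, 4 with no filter, 2 at 1 CPM, in DESeq2 and in the robust fit, and 0 by library size. FPKM tested only 4 regulators and called 0, and TPM tested none of them. Adherens junction and desmosome genes had 0 as reported, 2 with no filter and 1 in the robust fit. Leaving out 1 library gave 27 to 442 calls over all genes, 0 to 2 among the members, 0 to 2 among the other tight junction genes and 0 to 1 among the regulators. It gave log2 fold changes of -1.04 to -0.80 for CLDN4 and -0.86 to -0.66 for CLDN7, and the adjusted p ran from 0.0208 to 0.118 and from 0.0171 to 0.112. The cause of these changes was not tested. With the replicate number as a block, 296 genes were called, with CLDN4 at -0.93 and CLDN7 at -0.78, both still called, but the pairing of numbers was not borne out. CLDN12, OCLN and CGN were not tested at 1 CPM, and TPM tested only CLDN4 and CLDN7. CGN rests on 13 to 30 counts a library, which limits what could be called.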

Other observations

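CLDN2, a pore-forming claudin of the gut, had counts of 4, 6 and 3 in MUT and of 0 in each WT library. It was picked out after its values were seen, was too scarce to be tested, and is given as counts only. Of the 24 claudins in the table, 11 had 0 counts in all 6 libraries, 6 were tested, and 7 had counts but were not tested.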
